A study of Mus musculus with 10 samples.

Results

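The genes described here are 30 genes of sterol and fatty acid metabolism: the enzymes that build cholesterol and fatty acids, the transcription factors that switch those enzymes on, and the receptor and transporters that send cholesterol out of the cell. They were taken as every probe set whose platform gene symbol is on the list, over all 10 arrays of the series. Of the 30 genes, 28 had a probe set (55 probe sets in all, of 22690 on the array), and Acat2 and Insig1 were not analysed here. A gene entered the tests when 2 or more arrays read above the pooled median, which held for 26 of the 28 and for 7474 of all 12393 genes measured. The other two, Acaca and Nr1h3, are given as signals.

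The series asked which genes, cell death genes among them, depend on the calcium signal that CD14 starts in LPS-treated dendritic cells. CD14 is a surface protein that hands LPS, the outer-membrane lipid of Gram-negative bacteria, to its receptor TLR4. The cells were grown from mouse bone marrow with supernatant of B16 cells that make GM-CSF and were used once most carried CD11c. Each of the 10 conditions is 1 Affymetrix array, so no condition has a replicate. Wild-type cells came from C57BL/6 mice and CD14-deficient cells from Cd14-/- mice on the C57BL/6 background, all 6 to 8 weeks old. In each genotype 1 culture was left unstimulated and taken at 24 h, 2 received smooth LPS at 1 µg/ml and were taken at 48 or 60 h, and 2 received the same LPS with 50 nM thapsigargin and were taken at 48 or 60 h. Thapsigargin inhibits SERCA, the pump that fills the endoplasmic reticulum with calcium, so that calcium leaks into the cytosol. There was no culture with thapsigargin alone, and unstimulated cells were taken earlier than all others, so a response to LPS and time in culture cannot be told apart. The labels do not say whether cultures came from separate mice.

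Cells make cholesterol from acetyl-CoA through mevalonate, farnesyl diphosphate, squalene and lanosterol. The transcription factor SREBP2 (gene Srebf2) drives this whole chain when membranes run short of sterol, and its relative SREBP1 (Srebf1) mainly drives fatty acid synthesis. The nuclear receptor LXR, whose alpha form is encoded by Nr1h3, is switched on by oxysterols and drives the exporters Abca1 and Abcg1, as well as Srebf1 and Scd1. In macrophages and dendritic cells this balance shapes membranes, lipid droplets and inflammatory signalling.

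The stretch just upstream of the start site is shown for genes of both arms that changed in several comparisons: the fatty acid synthase gene Fasn, the lanosterol demethylase gene Cyp51 and the exporter gene Abca1. They are the ones present in the RefSeq promoter table among the 6 genes picked by smallest adjusted p from those called in at least 2 of the 5 main comparisons (Scd1, Fasn, Scd2, Cyp51, Abcg1 and Abca1). Hmgcs1, which encodes the enzyme that makes HMG-CoA, was added after the search because, of the 23 listed genes with a promoter in the table, it alone held the sterol regulatory element core in this window. Each sequence is the 250 bases before the annotated start, 5′ to 3′ on the gene's strand, from RefSeq on GRCm38.p6. Capitals mark the motifs searched on both strands: the sterol regulatory element core (TCACNCCAC), the CCAAT box (CCAAT), the GC box (GGGCGG) and the core of the LXR direct repeat 4 (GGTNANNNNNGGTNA). The windows lie at chr13:119690101-119690350 (plus strand) for Hmgcs1, chr5:4104698-4104947 (minus) for Cyp51, chr11:120824548-120824797 (minus) for Fasn and chr4:53159896-53160145 (minus) for Abca1.
Hmgcs1: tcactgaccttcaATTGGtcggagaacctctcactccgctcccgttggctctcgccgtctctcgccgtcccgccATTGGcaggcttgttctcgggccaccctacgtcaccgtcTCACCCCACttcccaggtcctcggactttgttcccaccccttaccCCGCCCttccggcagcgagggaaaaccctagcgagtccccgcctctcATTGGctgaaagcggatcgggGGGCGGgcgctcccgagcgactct
Cyp51: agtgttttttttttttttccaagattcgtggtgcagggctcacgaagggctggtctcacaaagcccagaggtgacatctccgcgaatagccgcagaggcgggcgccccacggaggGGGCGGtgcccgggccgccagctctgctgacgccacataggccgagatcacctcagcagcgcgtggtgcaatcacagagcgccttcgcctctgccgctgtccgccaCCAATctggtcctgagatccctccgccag
Fasn: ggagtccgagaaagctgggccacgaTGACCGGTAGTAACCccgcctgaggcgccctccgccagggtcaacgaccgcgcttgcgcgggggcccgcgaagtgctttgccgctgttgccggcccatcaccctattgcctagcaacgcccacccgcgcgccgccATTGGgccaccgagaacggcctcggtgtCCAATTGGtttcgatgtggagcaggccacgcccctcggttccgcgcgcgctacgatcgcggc
Abca1: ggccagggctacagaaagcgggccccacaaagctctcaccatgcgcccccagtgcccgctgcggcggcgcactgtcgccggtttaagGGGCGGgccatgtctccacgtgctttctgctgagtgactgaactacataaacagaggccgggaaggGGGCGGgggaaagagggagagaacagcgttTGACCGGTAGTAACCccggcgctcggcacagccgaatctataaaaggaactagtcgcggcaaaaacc

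In Hmgcs1 the sterol regulatory element core lay between bases -137 and -129 from the start, with CCAAT boxes on its upstream and downstream sides and GC boxes at -92 to -87 and -24 to -19. Cyp51 held a GC box at -135 to -130 and a CCAAT box at -29 to -25. Fasn held CCAAT boxes at -90 to -86, -62 to -58 and -59 to -55, the last 2 of which overlap. Fasn at -225 to -211 and Abca1 at -67 to -53 matched the LXR core on the minus strand, with the same letters in both genes. Of 32851 promoters of this length in the table, 1.05% held the sterol regulatory element core, 33.8% a CCAAT box, 32.7% a GC box and 0.621% the LXR core. Among the 29 promoters of 23 of the listed genes, those counts were 1, 19, 21 and 3, the 3 being Abca1, Fasn and Srebf1. The LXR core was searched after the full direct repeat 4 consensus, present in 0.667% of promoters, matched none of the 29. These matches are letters in a window and say nothing of binding in these cells.

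Cd14 read 1499 in unstimulated wild-type cells, 15538 to 17729 in the other wild-type arrays and 1.85 to 7.35 in CD14-deficient cells, where each array was below the floor of 13.4. The CD14-deficient LPS array at 48 h stood apart: its cRNA yield of 15 µg was the lowest, its 18S rRNA control probe sets read 114 to 385, and 1297 genes (17.4% of those tested) were 2-fold apart from the 60 h array, against 491, 189 and 115 in the other pairs. The wild-type LPS array at 60 h was next, with 19 µg and 18S signals of 217 to 685, and the other 8 arrays read 1426 to 12656. Results are therefore also given without both arrays, a choice made after seeing the data. That fit keeps wild-type LPS cells at 48 h only and CD14-deficient LPS cells at 60 h only. Its time shift and spread then rest on the thapsigargin arrays alone, so a smaller p-value there is not firmer evidence. All 11 dendritic cell markers were measured, with a summed signal of 46041 to 79970, the highest on the CD14-deficient LPS array at 48 h. H2-Aa read 10029 to 16250 on all arrays, and Itgax, which encodes CD11c, 7439.9 and 7838 unstimulated and 750.4 to 6941 on the stimulated arrays. Cd86 read 1154.9 unstimulated and 6327.5 and 5487.5 under LPS in wild-type cells. Of the 11, 2 rose with LPS in each genotype and 9 did not pass. Under LPS 2 of the 11 were lower in wild-type than in CD14-deficient cells and 0 were higher. The 12 macrophage markers measured summed to 51210 and 57443 unstimulated, 46183 and 39448 under LPS in wild-type cells, 20836 and 42290 in CD14-deficient cells, and 27374 to 34453 with thapsigargin, with Cd163 at the floor on every array. That sum hides opposite moves: of 10 tested, 2 fell and 1 rose with LPS in wild-type cells. There Mrc1 read 2608 unstimulated and 39.0 and 42.8 under LPS, and Adgre1 2695.5 unstimulated and 8472.5 and 7815 under LPS. Stromal markers summed to 25.4 and 41.6 unstimulated and to 179 to 2885 on stimulated arrays, mostly from Dcn and Lum. Col1a1, Col1a2 and Col3a1 were below the pooled median on every array. B cell markers summed to 506 and 221 on the CD14-deficient LPS arrays at 48 and 60 h and to 58.5 to 136 on the other arrays. The list for T and NK cells reached at most 115 and that for erythroid cells 25.8. Neutrophil markers summed to 8436 to 12269 on the unstimulated and LPS arrays and to 3243 to 4780 with thapsigargin, a sum that hides opposite moves: of 5 tested, 3 fell and 1 rose with LPS in wild-type cells. S100a8 read 5953 unstimulated and 1698 and 1515 under LPS there, and Lcn2 257 unstimulated and 8424 and 10463 under LPS. The part of these shifts in the results was not tested, and in bulk RNA fewer cells of a type and less RNA per cell cannot be told apart.

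With LPS, wild-type cells carried less mRNA for 9 of the 21 tested synthesis genes and more for Abca1, while the other 12 synthesis genes did not pass. The desaturase gene Scd1 was 6.45-fold, Fasn 7.05-fold, Fdps 5.75-fold and Cyp51 4.11-fold lower than in unstimulated cells, while Abca1 was 3.11-fold higher. Of the 26 genes, 10 fell and 1 rose at an adjusted p under 0.05, and 15 did not pass. Across all 7474 genes 8.24% fell and 7.69% rose. The log2 change was negative for 23 of the 26, with a median of -0.98 against -0.03 over all genes. In CD14-deficient cells 5 genes fell and 1 rose, where 2.01% of all genes fell and 2.17% rose, with 24 of 26 changes negative and a median of -0.98 against 0.03. Values below are scaled MAS5 signals, and a log2 change is the mean of 48 and 60 h minus the unstimulated array, with the standard error of the limma fit after ±.

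The number that passed rested on single arrays. In wild-type cells 11 passed, and 2 or 3 without the wild-type LPS array at 48 or 60 h, 5 without any single array of the thapsigargin conditions, and 23 without either CD14-deficient LPS array or without both arrays of low yield. The share of all genes that passed was 15.9% with all arrays and, in the same order, 2.27% and 3.13%, between 5.24% and 5.34%, and 43.8%, 43.9% and 50.1%. In CD14-deficient cells 6 passed, and 0 without either wild-type LPS array or any array of the thapsigargin conditions (limma, 15 to 17 at an unadjusted p under 0.05). Dropping the 48 h array of CD14-deficient LPS cells gave 11, and dropping the 60 h array or both arrays of low yield gave 17. Of all genes 4.17% passed, 0.294% to 0.562% where the count was 0, and 15.9%, 38.6% and 28.2% in the last 3 fits. All 17 listed values that passed in these comparisons kept their direction under each alternative that tested the gene.

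**Figure D1:**
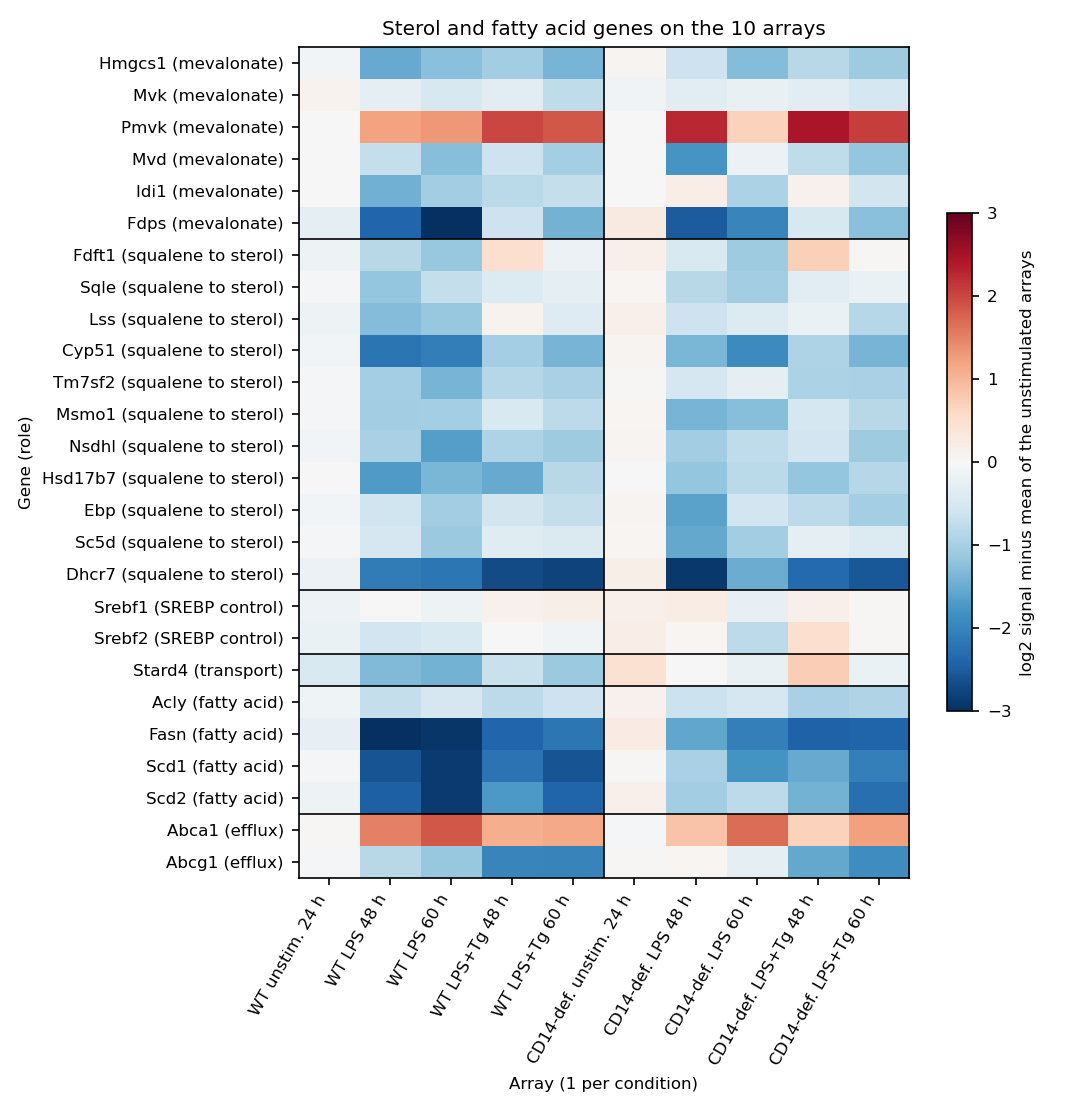
Log2 signal of the 26 tested genes on each array (columns, 1 array per condition; WT is wild type, CD14-def. is CD14-deficient, Tg is thapsigargin) minus the mean of the 2 unstimulated arrays, colour scale from -3 to 3. Synthesis genes are mostly blue on the 8 stimulated arrays, with Pmvk red and pale red cells for Fdft1, Idi1 and Lss, while Abca1 is red on all 8 and Abcg1 turns deepest blue with thapsigargin.

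The first steps, from acetyl-CoA to farnesyl diphosphate, are run by Hmgcs1, Mvk, Pmvk, Mvd, Idi1 and Fdps. Hmgcs1 read 2866 in unstimulated wild-type cells, 1071 and 1279 under LPS at 48 and 60 h, and 1484 and 1161 with thapsigargin. In CD14-deficient cells Hmgcs1 read 3222, then 1971 and 1235, then 1698 and 1462. Every stimulated array lay below both unstimulated ones, and Hmgcs1 fell in wild-type cells (-1.29 ± 0.30, adjusted p = 0.0386), while CD14-deficient cells gave -1.05 ± 0.30 (adjusted p = 0.112).

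Fdps encodes farnesyl diphosphate synthase, which makes the last intermediate shared with protein prenylation. Fdps read 1907 in unstimulated wild-type cells, 437 and 252 under LPS, and 1488 and 848 with thapsigargin. In CD14-deficient cells Fdps read 2732, then 402 and 579, then 1630.2 and 958. The LPS arrays were the lowest in both genotypes and the thapsigargin arrays lay between them and the unstimulated ones. Fdps fell with LPS in wild-type cells (-2.52 ± 0.45, adjusted p = 0.0199) and in CD14-deficient cells (-2.50 ± 0.45, adjusted p = 0.0436).

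The remaining genes of this stretch did not pass. Pmvk, phosphomevalonate kinase, was the synthesis gene that went the other way, at 387 and 379 unstimulated and between 616 and 2102 on the 8 stimulated arrays. Its log2 change under LPS was 1.23 ± 0.50 in wild-type cells (adjusted p = 0.146) and 1.49 ± 0.50 in CD14-deficient cells (adjusted p = 0.155). Pmvk under LPS in CD14-deficient cells was 1844 at 48 h and 616 at 60 h. Without both arrays of low yield its changes were 1.06 in wild-type and 0.83 in CD14-deficient cells. Idi1, isopentenyl diphosphate isomerase, and Mvd, mevalonate diphosphate decarboxylase, also split within that pair: Idi1 read 1680.4 and 756, and Mvd 235 and 705. Mvk, mevalonate kinase, had a signal of 114 to 209 on all arrays.

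The 11 genes from squalene to cholesterol were all negative under LPS in both genotypes, with medians of -1.06 and -1.01. In wild-type cells Cyp51, Tm7sf2, Msmo1 and Hsd17b7 fell, and in CD14-deficient cells Cyp51 and Msmo1. Cyp51, which removes the first methyl group from lanosterol, read 687 unstimulated, 161 and 174 under LPS, and 359 and 278 with thapsigargin in wild-type cells. In CD14-deficient cells Cyp51 read 775, then 282 and 194, then 386 and 278. The change with LPS was -2.04 ± 0.29 in wild-type cells (adjusted p = 0.0108) and -1.73 ± 0.29 in CD14-deficient cells (adjusted p = 0.0363), and no stimulated array reached the unstimulated level.

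Msmo1, the C4 methylsterol oxidase, read 1835 unstimulated, 928 and 942 under LPS, and 1411 and 1116 with thapsigargin in wild-type cells. In CD14-deficient cells Msmo1 read 2019, then 730.4 and 788, then 1338 and 1075. LPS alone gave the lowest signals in both genotypes, with changes of -0.97 ± 0.23 (adjusted p = 0.0431) and -1.41 ± 0.23 (adjusted p = 0.0354). Hsd17b7, the 3-ketosteroid reductase of this stretch, read 225 unstimulated, 69.1 and 86.8 under LPS, and 79.3 and 128 with thapsigargin in wild-type cells. In CD14-deficient cells Hsd17b7 read 227, then 102 and 129, then 101 and 126. It fell in wild-type cells (-1.54 ± 0.29, adjusted p = 0.0241), and CD14-deficient cells gave -0.99 ± 0.29 (adjusted p = 0.124).

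Tm7sf2, a sterol C14 reductase, read 270.5 unstimulated, 137 and 105 under LPS, and 154 and 143 with thapsigargin in wild-type cells. In CD14-deficient cells Tm7sf2 read 286, then 195 and 232, then 144 and 143. Wild-type cells passed (-1.18 ± 0.30, adjusted p = 0.0487) and CD14-deficient cells did not (-0.43 ± 0.30, adjusted p = 0.438). Fdft1 (squalene synthase), Sqle (squalene epoxidase), Lss (lanosterol synthase), Nsdhl (the C4 decarboxylating dehydrogenase), Ebp (the sterol isomerase), Sc5d (the C5 desaturase) and Dhcr7 (the last reductase before cholesterol) did not pass in either genotype. Their changes ran from -0.74 to -1.95 in wild-type cells and from -0.67 to -2.37 in CD14-deficient cells, with Dhcr7 the most negative in each. Dhcr7 read 748 and 955 unstimulated and 113 to 301 on the 8 stimulated arrays, which do not overlap. Its LPS changes had standard errors of 0.53 and adjusted p-values of 0.0581 and 0.0699.

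**Figure D2:**
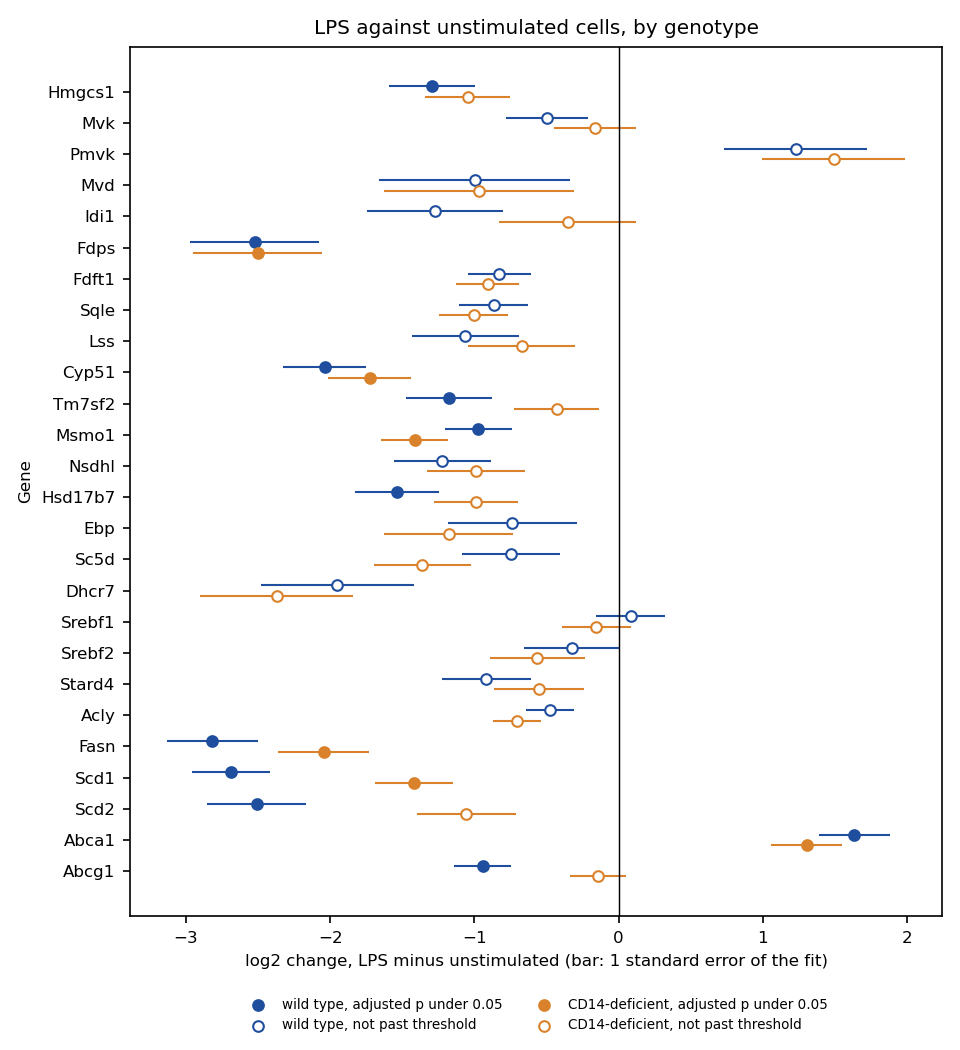
Log2 change with LPS for each tested gene in wild-type (blue) and CD14-deficient cells (orange), with bars of 1 standard error from the fit; filled points have an adjusted p under 0.05. Most points lie left of 0 in both genotypes, with Pmvk and Abca1 on the right, and the widest gaps between genotypes are at Scd1 and Scd2.

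The regulators did not pass in either genotype. Srebf1 read 498 to 688 over all 10 arrays, with LPS changes of 0.08 ± 0.24 and -0.16 ± 0.24 (adjusted p = 0.834 and 0.744). Srebf2 read 388 to 957, with LPS changes of -0.33 ± 0.33 and -0.56 ± 0.33 (adjusted p = 0.533 and 0.360). The signals report mRNA, while SREBP activity is set by cleavage of the protein, which was not measured. Nr1h3 read 90.4 and 116 unstimulated and 26.6 to 63.4 on the stimulated arrays, under the pooled median of 99.2 on 9 arrays, and was not tested.

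Fatty acid synthesis was represented by Acly, which makes cytosolic acetyl-CoA, Acaca, Fasn, and the desaturase genes Scd1 and Scd2, whose products put the first double bond into saturated chains. Fasn read 961 unstimulated, 122 and 152 under LPS, and 219.96 and 255 with thapsigargin in wild-type cells. In CD14-deficient cells Fasn read 1354, then 389 and 276, then 212 and 214. All stimulated arrays lay far below the unstimulated ones, with changes under LPS of -2.82 ± 0.31 (adjusted p = 0.00642) and -2.04 ± 0.31 (adjusted p = 0.0297).

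Scd1 read 788 unstimulated, 135 and 110 under LPS, and 175 and 135 with thapsigargin in wild-type cells. In CD14-deficient cells Scd1 read 829.6, then 415 and 233, then 283 and 195. It fell with LPS in both, by 2.69 ± 0.27 (adjusted p = 0.00495) and by 1.42 ± 0.27 (adjusted p = 0.0493). Scd2 read 4798 unstimulated, 974 and 728 under LPS, and 1605 and 1002 with thapsigargin in wild-type cells. In CD14-deficient cells Scd2 read 5864, then 2590.4 and 3069, then 1979 and 1099. Scd2 fell in wild-type cells (-2.51 ± 0.34, adjusted p = 0.0103), and CD14-deficient cells gave -1.06 ± 0.34 (adjusted p = 0.147). Acly read 3766 and 4554 unstimulated and 2119.7 to 2944 on the stimulated arrays, a small difference that did not pass (-0.47 ± 0.17 and -0.70 ± 0.17, adjusted p = 0.111 and 0.0803). The probe set for Acaca read 3.39 to 23.3 on all arrays, near the floor, so its level could not be followed.

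The efflux genes did not move together. Abca1, which loads cholesterol onto apolipoprotein A-I, read 1981 unstimulated, 5434 and 6975 under LPS, and 4058 and 4242 with thapsigargin in wild-type cells. In CD14-deficient cells Abca1 read 1861, then 3467 and 6093, then 3077 and 4469. Each stimulated array was above both unstimulated ones, and Abca1 rose with LPS in both genotypes (1.64 ± 0.25, adjusted p = 0.0127, and 1.30 ± 0.25, adjusted p = 0.0484).

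Abcg1, which exports cholesterol to HDL particles, read 3559.7 unstimulated, 2062 and 1662 under LPS, and 931 and 915 with thapsigargin in wild-type cells. In CD14-deficient cells Abcg1 read 3757, then 3826 and 3027, then 1271 and 998. Abcg1 fell with LPS in wild-type cells (-0.94 ± 0.20, adjusted p = 0.0301), whereas CD14-deficient cells stayed at -0.14 ± 0.20 (adjusted p = 0.711). The 4 thapsigargin arrays were the lowest and did not overlap the other 6. So both exporters, textbook targets of the same receptor, ran in opposite directions under LPS in wild-type cells.

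Other genes of the pathway were read from lists. Of 7 tested genes of sterol synthesis and its control, 2 rose and 1 fell with LPS in wild-type cells: Insig2, which holds SREBP in the endoplasmic reticulum, by 1.68 ± 0.36, Ggps1, which draws farnesyl diphosphate into prenylation, by 1.30 ± 0.25, and Acat1, the mitochondrial acetoacetyl-CoA thiolase, at -2.996 ± 0.22 (adjusted p = 0.0319, 0.0241 and 0.00237). In CD14-deficient cells Acat1 fell by 1.39 ± 0.22 and Aacs, acetoacetyl-CoA synthetase, by 1.67 ± 0.30 (adjusted p = 0.0316 and 0.0429), and 5 did not pass. The median change of this list was -0.44 and 0.16.

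Of 14 tested genes of fatty acid elongation, desaturation and esterification, 2 rose and 5 fell in wild-type cells under LPS. Fads2, a desaturase of polyunsaturated fatty acids, fell (-3.05 ± 0.42), as did Elovl6, which elongates palmitate (-2.37 ± 0.42), while Dgat2, which makes triacylglycerol, rose by 3.41 ± 0.43 (adjusted p = 0.0103, 0.0204 and 0.00869). In CD14-deficient cells only the acyltransferase genes passed among these 14: Dgat1 rose by 1.51 ± 0.21 and Dgat2 by 2.79 ± 0.43 (adjusted p = 0.0254 and 0.0297). Dgat2 read 51.7 and 82.4 unstimulated and 294 to 768 on the stimulated arrays.

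Of 14 tested genes of efflux and oxysterol metabolism, 3 fell in wild-type cells under LPS and 0 passed in CD14-deficient cells. In the latter 7 had an unadjusted p under 0.05 in limma, as did 1690 of all 7474. Ch25h, which makes 25-hydroxycholesterol, read 966 unstimulated, 84.0 and 118 under LPS, and 158 and 122 with thapsigargin in wild-type cells. In CD14-deficient cells Ch25h read 989, then 109 and 562, then 103 and 179.6. It fell in wild-type cells by 3.28 ± 0.74 (adjusted p = 0.0375), with the CD14-deficient LPS arrays far apart. Cyp27a1, which makes 27-hydroxycholesterol, fell by 1.53 ± 0.35 and Rxra, the partner of LXR, by 1.15 ± 0.26 (adjusted p = 0.0386 and 0.0383). Apoe, the lipid carrier, read 245 and 291 unstimulated and 71.7 to 108 on stimulated arrays, with LPS changes of -1.40 ± 0.36 and -1.77 ± 0.36 that did not pass (adjusted p = 0.0527 and 0.0589).

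Comparing the genotypes directly under LPS, both desaturase genes, Abcg1 and Stard4 were lower in wild-type than in CD14-deficient cells. Of the 26 genes 4 were lower and 0 were higher, where 2.57% of all genes were lower and 2.61% higher. In limma 6 of the 26 had an unadjusted p under 0.05, as did 2050 of all 7474. Scd2 differed by -1.74 ± 0.28, a 3.35-fold lower level (adjusted p = 0.0326), Scd1 by -1.35 ± 0.22 (adjusted p = 0.0347) and Abcg1 by -0.88 ± 0.16 (adjusted p = 0.0413). Fasn fell just outside the threshold (-1.27 ± 0.26), with an adjusted p just above 0.05. The wild-type LPS arrays lay below the CD14-deficient ones at each time for these 4 genes. The same arrays gave the differences above, so this is not separate evidence. The median over the 26 was -0.32, against -0.08 over all genes. None of the 17 sterol synthesis genes passed, 1 of them at an unadjusted p under 0.05.

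Stard4, which carries cholesterol between membranes, was the other gene that passed. It read 427 unstimulated, 233 and 219 under LPS, and 365 and 268 with thapsigargin in wild-type cells. In CD14-deficient cells Stard4 read 799, then 589 and 503, then 979 and 511. The wild-type signal was the lower in all 5 matched conditions. The difference was -1.27 ± 0.25 under LPS (adjusted p = 0.0495), -1.18 ± 0.25 under LPS with thapsigargin (adjusted p = 0.608) and -0.90 ± 0.36 unstimulated (adjusted p = 1), and LPS itself changed Stard4 by -0.92 ± 0.31 and -0.55 ± 0.31, neither past the threshold. Another probe set of Stard4 read 113 to 239.8 on wild-type and 292 to 679.8 on CD14-deficient arrays, which do not overlap.

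At 48 and at 60 h alike, 3 of the 26 genes (Scd1, Scd2 and Stard4) were at least 2-fold lower in wild-type cells and 0 were 2-fold higher, against 3.3% and 2.19% of all genes, while Mvd was 2-fold higher at 48 h and 2-fold lower at 60 h. The count of 4 fell to 0 without either wild-type LPS array or any array with thapsigargin (limma, 6 to 9 at an unadjusted p under 0.05), and rose to 8 when the 48 h array of CD14-deficient LPS cells was left out and to 13, 5 of them higher in wild-type cells, when the 60 h array was. Of all genes 5.18% passed, 0.0268% to 0.0937% where the count was 0, and 17.8% and 44.3% in the latter fits. Without both arrays of low yield Scd2 was at -2.42 and Fasn at -1.06. That fit sets wild-type LPS cells at 48 h against CD14-deficient LPS cells at 60 h.

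Whether LPS itself acted differently with and without CD14 was tested as an interaction. None of the 26 genes passed, nor did any of the 7474 (0%). An unadjusted p under 0.05 in limma was reached by 613 of the 7474 and by 3 of the 26. These were Scd1 (-1.27 ± 0.38), Scd2 (-1.45 ± 0.48) and Abcg1 (-0.80 ± 0.28), with adjusted p-values of 0.541, 0.566 and 0.566, each more negative in wild-type cells. The count was 4 when the 60 h array of CD14-deficient LPS cells was left out (18.3% of all genes) and 1 without both arrays of low yield (4.19%). This interaction and the comparison under LPS share the LPS arrays.

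Of the other lists, Acat1 was lower in wild-type than in CD14-deficient cells under LPS (-1.58 ± 0.18, adjusted p = 0.0173, 1 of 7). Elovl6 (-2.03 ± 0.35), Fads3 (-1.84 ± 0.35) and Fads1 (-1.02 ± 0.20) were lower among 14 fatty acid genes (adjusted p = 0.0376, 0.0450 and 0.0451), with a list median of -0.43. Among 14 efflux and oxysterol genes Cyp27a1 was lower (-2.17 ± 0.29, adjusted p = 0.0228). Npc1, which moves cholesterol out of lysosomes, was higher (1.25 ± 0.20, adjusted p = 0.0314), and its signal was already 1152 in unstimulated wild-type against 725 in unstimulated CD14-deficient cells.

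**Figure D3:**
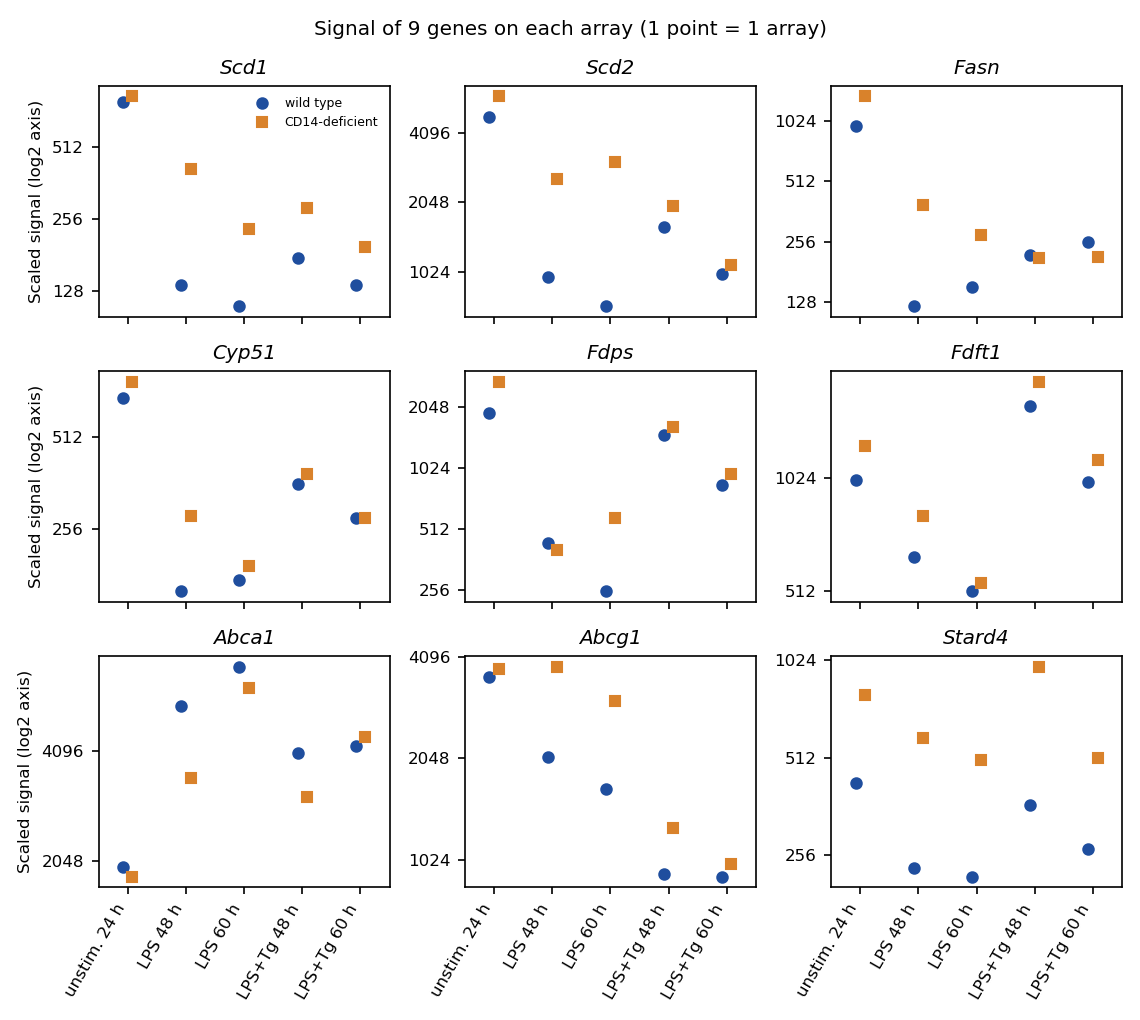
Scaled MAS5 signal (log2 axis, each panel with its own range) of 9 genes in the 5 conditions; blue circles are wild-type and orange squares CD14-deficient arrays, 1 point per array, Tg is thapsigargin. Scd1, Scd2 and Fasn are lowest in wild-type LPS cells, Fdps and Fdft1 are higher with thapsigargin than with LPS alone, Abcg1 is lowest with thapsigargin, and Stard4 is lower in wild-type cells in all 5 conditions.

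Adding thapsigargin to LPS raised Fdft1, the squalene synthase gene that starts the branch committed to sterols, and lowered Abcg1 in CD14-deficient cells, where 3.43% of all genes rose and 3.2% fell. These were the 2 of 26 genes that passed there, 1 in each direction, which is near the share of all genes. In wild-type cells 0 of 26 passed, where 0.0134% of all genes rose and 0.0401% fell. In limma 8 of the 26 had an unadjusted p under 0.05 there, as did 770 of all 7474. The comparison uses 2 arrays against 2 in each genotype, and its LPS arrays are those of the LPS response, so a low LPS signal enters both.

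Fdft1 read 1008 unstimulated, 632 and 511 under LPS, and 1583 and 995 with thapsigargin in wild-type cells. In CD14-deficient cells Fdft1 read 1239, then 811 and 538, then 1842 and 1141. The thapsigargin arrays at 48 h were above, and those at 60 h slightly below, the unstimulated level. The effect was 1.14 ± 0.18 in wild-type cells (adjusted p = 0.143) and 1.13 ± 0.18 in CD14-deficient cells (adjusted p = 0.0238), with a difference between genotypes of 0.01 ± 0.25 (adjusted p = 0.990).

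For Abcg1, whose signals are given above, the effect was -1.004 ± 0.16 in wild-type cells (adjusted p = 0.146) and -1.60 ± 0.16 in CD14-deficient cells (adjusted p = 0.0126). The difference between genotypes was 0.59 ± 0.23 (adjusted p = 0.356). Abca1 was also lower with thapsigargin on average, at -0.57 ± 0.20 and -0.31 ± 0.20 (adjusted p = 0.427 and 0.358). These are the values of the probe set used, and the other 2 Abca1 probe sets gave -0.18 ± 0.57 and -1.70 ± 0.55 in wild-type cells and 0.29 ± 0.57 and 1.14 ± 0.55 in CD14-deficient cells, none past the threshold.

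Other sterol genes were higher with thapsigargin without passing. Fdps gave 1.76 ± 0.37 in wild-type cells (adjusted p = 0.214) and 1.37 ± 0.37 in CD14-deficient cells (adjusted p = 0.0767). Cyp51 gave 0.92 ± 0.23 and 0.49 ± 0.23 (adjusted p = 0.311 and 0.233), and Sqle 0.58 ± 0.20 and 0.67 ± 0.20 (adjusted p = 0.422 and 0.0925). A further Cyp51 probe set gave 0.24 ± 0.26 in wild-type and -0.19 ± 0.26 in CD14-deficient cells. The log2 change in wild-type cells was positive for 15 of the 17 sterol genes and for 4762 of all 7474, with medians of 0.41 and 0.11. In CD14-deficient cells it was positive for 11 of the 17 and for 3737 of all 7474, with medians of 0.17 and 0.00. Dhcr7 (-0.60 ± 0.43 and -0.25 ± 0.43, adjusted p = 0.669 and 0.741) and Mvk (-0.17 ± 0.23 and -0.16 ± 0.23) were negative in both genotypes. In CD14-deficient cells Tm7sf2 was the most negative of the 17, at -0.57 ± 0.24 (adjusted p = 0.187).

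No fatty acid gene passed with thapsigargin. With the probe sets used, Fasn, Scd1 and Scd2 had positive values in wild-type and negative values in CD14-deficient cells. Acly was negative in both (-0.09 ± 0.14 and -0.37 ± 0.14). A further Scd1 probe set was positive in both genotypes (0.50 ± 0.31 and 0.80 ± 0.31), and a further Scd2 probe set gave 1.61 ± 0.87 and -0.40 ± 0.87. With thapsigargin Fasn was 0.80 ± 0.26 higher in wild-type cells and -0.62 ± 0.26 in CD14-deficient cells (adjusted p = 0.410 and 0.176). Scd2 gave 0.59 ± 0.28 and -0.94 ± 0.28 (adjusted p = 0.529 and 0.0956). The interaction was 1.42 ± 0.36 for Fasn and 1.53 ± 0.39 for Scd2 (adjusted p = 0.254 and 0.261). None of the 26 genes passed this interaction, nor any of the 7474 (0%). In limma 5 of the 26 had an unadjusted p under 0.05, as did 994 of the 7474. Leaving out the 48 h array of CD14-deficient LPS cells let 3 pass (5.1% of all genes), and leaving out the 60 h array or both arrays of low yield let 5 pass (25.4% and 12.8%). After thapsigargin Fasn read 219.96 and 255 in wild-type against 212 and 214 in CD14-deficient cells. Scd1 read 175 and 135 against 283 and 195, and Scd2 1605 and 1002 against 1979 and 1099. Under LPS with thapsigargin 0.0268% of all genes differed between genotypes.

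Counted without a model, 1 gene of 26 was 2-fold higher with thapsigargin at both times in wild-type cells (Fdps) and 0 were 2-fold lower, where 1.1% and 1.74% of all genes were. In CD14-deficient cells 1 was 2-fold higher (Fdft1) and 1 lower (Abcg1), against 2.77% and 4.03% of all genes. Without both arrays of low yield each LPS group is 1 array. The effect in wild-type cells was then 1.76 for Fdps, 1.33 for Fdft1, 0.76 for Scd2, 0.90 for Fasn and -1.07 for Abcg1. In CD14-deficient cells the effect for Scd2 was -1.44.

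Single arrays moved the number of genes that passed. In wild-type cells 4 genes passed once the 48 h array of CD14-deficient LPS cells was left out, and 6 once the 60 h array was, with 7.84% and 7.95% of all genes. In CD14-deficient cells 9 and 8 passed without these, with 28.8% and 38.7% of all genes, and 0 (0% of all genes) without any single array of the thapsigargin conditions (limma, 3 to 7 at an unadjusted p under 0.05). Further probe sets were compared only if they met the signal rule that let a gene enter the tests. The dimmer ones were left out, so their signs are not counted here. The 16 kept came from 12 of the genes. All 16 had the sign of the probe set used in both LPS responses and in the comparison of genotypes under LPS. In the thapsigargin effects 13 did in wild-type and 6 in CD14-deficient cells. The other Fdft1 probe set above background read 355 and 264 under LPS against 974 and 570.3 with thapsigargin in wild-type cells, and 363 and 439 against 1135 and 608 in CD14-deficient cells.

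From the other lists, Ggps1 rose with thapsigargin in CD14-deficient cells (1.01 ± 0.20, adjusted p = 0.0430) and Apoc2, an apolipoprotein that activates lipoprotein lipase, fell (-1.80 ± 0.30, adjusted p = 0.0262). Of the 7 sterol, 14 fatty acid and 14 efflux genes tested, these were the ones that passed in CD14-deficient cells. In wild-type cells none of the 35 passed in limma, with 7 of them at an unadjusted p under 0.05, as were 770 of all 7474. Ch25h gave 0.48 ± 0.61 and -0.86 ± 0.61 and Apoe -0.15 ± 0.30 and 0.04 ± 0.30 with thapsigargin in wild-type and CD14-deficient cells, none past the threshold (adjusted p = 0.825, 0.393, 0.890 and 0.948).

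**Figure D4:**
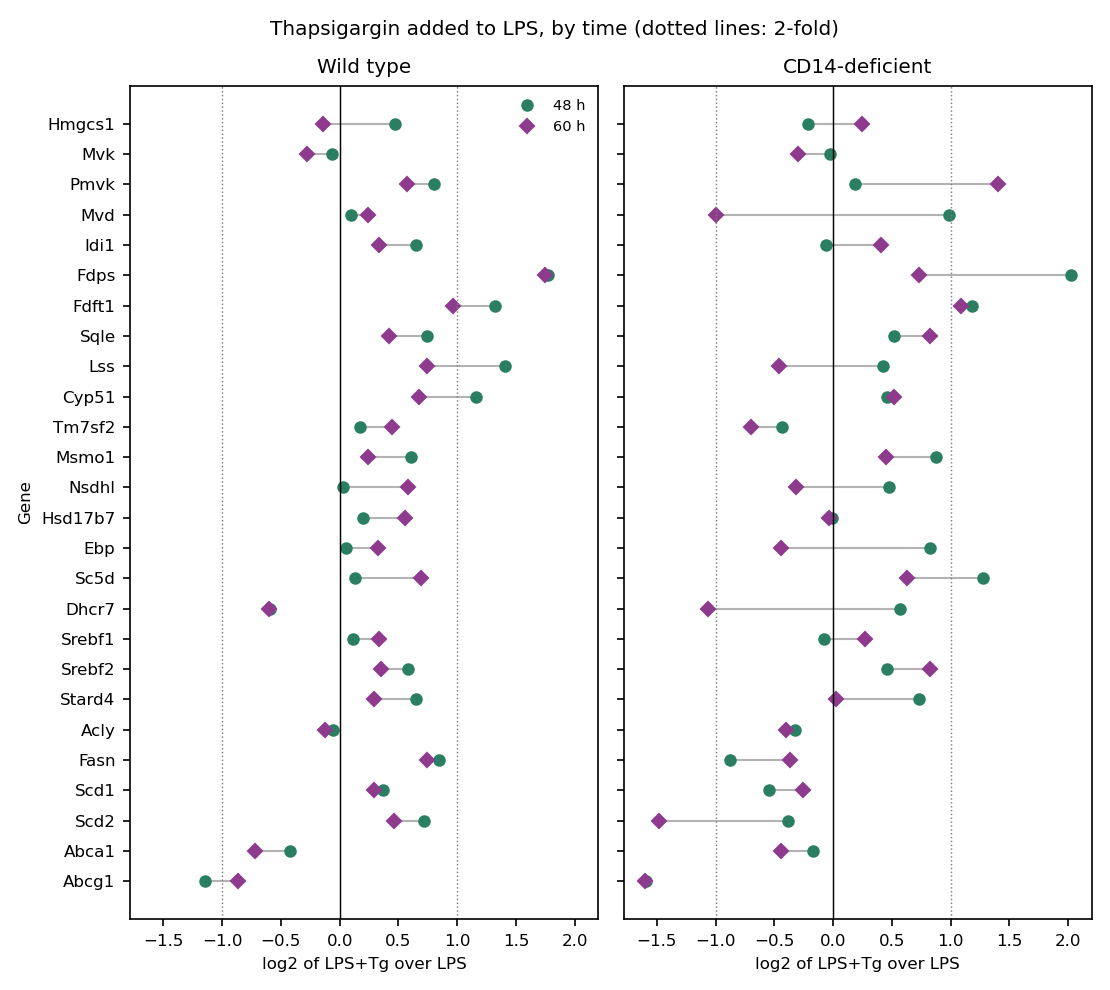
Log2 ratio of LPS with thapsigargin over LPS alone at 48 h (green circles) and 60 h (purple diamonds) for each gene, 1 array over 1 array, with dotted lines at 2-fold; left wild type, right CD14-deficient. Fdps lies beyond 1 at both times in wild-type cells, Fdft1 and Abcg1 lie beyond 2-fold on opposite sides in CD14-deficient cells, and Mvd and Dhcr7 split by time there.

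Averaged by role, the 17 sterol synthesis genes lay at -1.09 and -1.22 (log2 against the mean unstimulated signal) in wild-type LPS cells at 48 and 60 h and at -0.57 and -0.78 with thapsigargin. In CD14-deficient cells the mean over the sterol genes was -0.95 and -0.86 with LPS and -0.42 and -0.74 with thapsigargin. The 4 fatty acid genes lay at -2.24 and -2.29 with LPS and -1.77 and -1.94 with thapsigargin in wild-type cells. In CD14-deficient cells the fatty acid mean was -1.05 and -1.28 with LPS and -1.58 and -1.91 with thapsigargin. The fatty acid mean was thus below the sterol mean on each of the 8 stimulated arrays. The mean over all tested genes lay between -0.13 and 0.05 on every array.

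**Figure D5:**
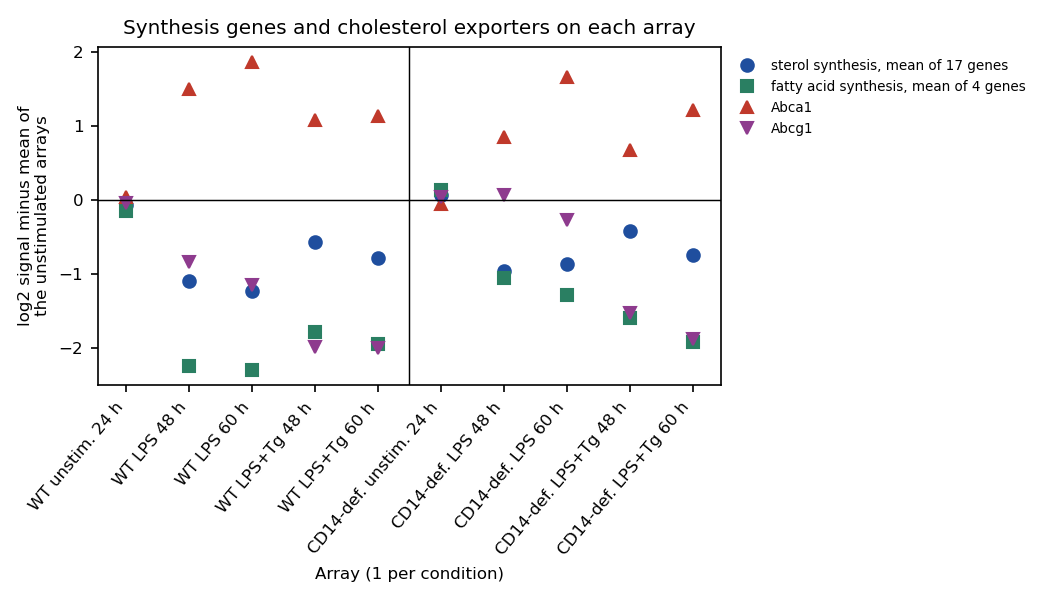
Mean log2 signal of 17 sterol synthesis genes (blue) and 4 fatty acid genes (green), with Abca1 (red) and Abcg1 (purple), on each array relative to the mean of the 2 unstimulated arrays. Synthesis means lie below 0 and Abca1 above 0 on all 8 stimulated arrays, and Abcg1 stays near 0 under LPS without CD14 but drops to between -1.52 and -1.999 with thapsigargin.

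The remaining comparisons gave no call. Under LPS with thapsigargin 0 of 26 genes differed between genotypes, where 0.0268% of all genes did. In limma 2 of the 26, Stard4 and Scd1, had an unadjusted p under 0.05, as did 329 of all 7474. Unstimulated cells differed in 0 of 26 (1 unadjusted, Stard4), where 0.0134% of all genes did. The log2 difference was negative for 22 of the 26 and for 3959 of all 7474, with medians of -0.17 and -0.01. Between 60 and 48 h 0 of 26 passed, as did 0% of all genes. An unadjusted p under 0.05 in limma was reached by 734 of all 7474 and by 4 of the 26. The 4 were Fdft1 (-0.57 ± 0.13), Scd1 (-0.51 ± 0.16), Abca1 (0.44 ± 0.14) and Hsd17b7 (0.42 ± 0.17), with adjusted p-values of 0.399 to 0.506.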

How the data were processed

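The authors computed a linear MAS5 signal, deposited as 1 intensity per probe set, per the submitters' processing notes; no MAS5 version or scaling target is given in the sources used here. Deposited 2% trimmed means ran from 444 to 553, and each array was scaled to 509. Signals below 13.4, the pooled 25th percentile, were set to it and log2 was taken. Names came from the platform table (20380 probe sets with 1 symbol, 691 with several, 1619 with none), of which 20351 matched RefSeq (GRCm38.p6, for names and promoters). The probe set with the highest mean stood for each gene.

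Genes were fitted with limma 3.58.1 (R 4.3.3) on all 10 arrays together. The model had 6 genotype-by-treatment levels plus the shift from 48 to 60 h, with variances moderated along an intensity trend (3 residual degrees of freedom, prior 2.95). P-values are two-sided, with Benjamini-Hochberg adjustment across 7474 genes within each of 10 comparisons and a threshold of 0.05. They rest on how far 48 and 60 h depart from a common shift, not on repeated cultures. A common spread for all conditions is assumed, so p-values can be too small in comparisons with CD14-deficient LPS cells and too large elsewhere. Alternatives changed the scaling, normalization, floor, filter, trend, time term, probe set choice and arrays used. The genes and lists were chosen with earlier results of these data known. Every listed gene is named, those that passed a main comparison have all 10 signals, and the other pathway lists give Ch25h and Apoe and up to 3 genes that passed with the largest change per comparison. No array was left out of the main results.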

Additional observations from a re-analysis of the deposited data

How the results depend on the processing

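The 23 gene values that passed kept their sign under every alternative, while 68 of 1922 values of results that had not passed changed sign. Some of those 1922 values passed under an alternative, and a few of these did so in the direction opposite to the main fit. The number of genes that passed moved more. Without the filter on dim genes it was 7 in wild-type LPS cells (11 as reported), 1 in CD14-deficient LPS cells (6), 0 between genotypes under LPS (4; limma, 8 at an unadjusted p under 0.05) and 1 for thapsigargin in CD14-deficient cells (2). LPS in CD14-deficient cells gave 3 with a stricter filter and 3 with the mean over probe sets. The genotypes under LPS gave 2 with unscaled arrays and 2 with no time term. Thapsigargin in CD14-deficient cells gave 1 with no time term and 1 with the mean over probe sets. Shares of all genes are not given for these fits, so whether the drops are particular to the listed genes cannot be told. Leaving out each stimulated array in turn gave 2 to 23 for LPS in wild-type cells, 0 to 17 for LPS in CD14-deficient cells, 0 to 13 between genotypes under LPS, 0 to 6 and 0 to 9 for thapsigargin in wild-type and CD14-deficient cells, 0 to 4 and 0 to 5 for the interactions with LPS and with thapsigargin, and 0 to 1 for 60 against 48 h. Without both arrays of low cRNA yield (chosen after seeing the data) the counts were 23, 17, 8, 10, 15, 1 and 5 in that order, and 1 between genotypes with thapsigargin. The shares of all genes that passed in those fits were 50.1%, 28.2%, 22.5%, 15.7%, 43.5%, 4.19%, 12.8% and 5.04%. The fit without both arrays keeps 1 LPS array per genotype, and its time shift and spread rest on the thapsigargin arrays alone. No paired analysis was possible because the labels carry no replicate numbers. MAS5 signals near the floor do not separate a low level from background, which limits Acaca and Nr1h3.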

Other observations

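Genes of lipid uptake and storage (9 listed, 8 tested) moved in both directions. Fabp4, a fatty acid carrier, read 4382 and 5694 unstimulated, 282 and 461 under LPS in wild-type cells, 1889 and 1225 under LPS in CD14-deficient cells, and 61.5 to 198 with thapsigargin. The LPS change of Fabp4 was -3.60 ± 0.41 in wild-type cells (adjusted p = 0.00662) and -1.90 ± 0.41 in CD14-deficient cells, where it did not pass. Fabp4 was lower in wild-type cells under LPS (-2.08 ± 0.33, adjusted p = 0.0326) and fell with thapsigargin in CD14-deficient cells (-3.11 ± 0.33, adjusted p = 0.0145). Hilpda, a lipid droplet protein that restrains triacylglycerol breakdown, read 779 and 542 unstimulated, 9317 and 9382 under LPS in wild-type cells, 1429 and 3068 under LPS in CD14-deficient cells, and 7545 to 11451 with thapsigargin. It rose with LPS in both genotypes (3.59 ± 0.37 and 1.95 ± 0.37, adjusted p = 0.00536 and 0.0481). Hilpda was higher in wild-type cells under LPS (2.16 ± 0.30, adjusted p = 0.0274) and rose with thapsigargin in CD14-deficient cells (1.97 ± 0.30, adjusted p = 0.0229). Besides Fabp4 and Hilpda, none of the 8 passed in a main comparison (limma).

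Of 9 tested genes of fatty acid oxidation and its control, 1 passed in each LPS response and 0 in the other main comparisons in limma (1 to 3 at an unadjusted p under 0.05). Slc25a20, which carries acylcarnitines into mitochondria, rose with LPS by 1.15 ± 0.20 in wild-type and by 1.12 ± 0.20 in CD14-deficient cells (adjusted p = 0.0176 and 0.0414). Pparg, a nuclear receptor for fatty acids, read 216 and 274 unstimulated and 17.01 to 53.1 on the stimulated arrays, with LPS changes of -2.75 ± 0.72 and -2.88 ± 0.72 that did not pass (adjusted p = 0.0533 and 0.0880).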
